A study of Mus musculus with 24 samples.

Results

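The replication-dependent histone genes encode the linker histone H1 and the core histones H2A, H2B, H3 and H4 that package newly made DNA. They were taken here as every gene whose symbol began with Hist1h, Hist2h, Hist3h or Hist4h, that was listed in both expression tables of the study, and whose mean level was at least 1 FPKM (read counts scaled to the length of the transcript and the depth of the library) over the 12 libraries of each table. Of 59 such rows among 21532 genes listed in both tables, 55 passed. The 4 left out were Hist1h4m, Hist1h2al, Hist2h3c1 and Hist2h3c2, and 57 genes would pass if 1 table were enough. The 55 genes fell into 6 for H1, 15 for H2A, 17 for H2B, 5 for H3 and 12 for H4. By position, 45 lay in the Hist1 cluster on chromosome 13, 6 in Hist2 on chromosome 3, 3 in Hist3 on chromosome 11 and 1 in Hist4 on chromosome 6. Hist1h2aj and Hist3h2bb-ps are annotated as pseudogenes, and the identifier listed as Hist2h2bb belongs to a lincRNA named Gm42743 in the GENCODE M21 annotation of the same build.

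RNA came from testes of mice at postnatal day 7, on a C57BL/6J background, with the testes of 3 mice pooled for each isolation. Immunomagnetic cell sorting separated undifferentiated spermatogonia (uSPG), by THY1, from differentiating ones (dSPG), by KIT. One table held both fractions from WT mice and from Zbtb16 null mice (Zbtb16 lu/lu, the luxoid allele), and the methods name WT and heterozygous littermates as its controls. The other held both fractions from WT mice and from Sox3 cKO mice, in which a floxed Sox3 is removed in germ cells by Ddx4-Cre. Each of the 8 groups had 3 libraries, which the study calls independent biological replicates.

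Most mRNAs end in a poly(A) tail, but replication-dependent histone mRNAs end in a short stem-loop that is bound by the stem-loop binding protein SLBP. They are made in bulk in S phase, when NPAT drives their transcription, and are destroyed when DNA synthesis stops. A few members are made in other settings, among them the testis histones H1t, TH2A and TH2B, which partly replace their somatic counterparts in male germ cells. The libraries were depleted of ribosomal RNA and not selected for poly(A), so transcripts without a tail were sequenced.

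The stem-loop, searched as GGCNCTTTT followed at once by NAGNGCC within the annotated transcripts, was found for 33 of the 55 genes and for 47 of 55450 genes of all kinds (0.0848%). A match is a description of letters, and several annotated models end before the place where it would lie. The sites of 8 genes are shown because they cover all the loop and stem variants found among the members, with the stem-loop in capitals and 5 flanking bases on each side, 5′ to 3′ on the strand of the gene (mm10):
Hist3h2ba (chr11:58949344-58949369, plus strand): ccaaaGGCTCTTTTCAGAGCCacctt
Hist1h1c (chr13:23739507-23739532, plus strand): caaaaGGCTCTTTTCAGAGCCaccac
Hist1h2bk (chr13:22036295-22036320, plus strand): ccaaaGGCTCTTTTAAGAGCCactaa
Hist1h1t (chr13:23696520-23696545, plus strand): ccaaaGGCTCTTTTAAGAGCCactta
Hist2h2ac (chr3:96220413-96220438, minus strand): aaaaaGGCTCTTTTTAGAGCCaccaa
Hist4h4 (chr6:136803993-136804018, minus strand): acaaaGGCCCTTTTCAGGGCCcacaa
Hist1h4d (chr13:23581945-23581970, plus strand): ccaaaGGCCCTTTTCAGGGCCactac
Hist2h4 (chr3:96262934-96262959, minus strand): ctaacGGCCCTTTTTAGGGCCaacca
The commonest form, that of Hist3h2ba and Hist1h1c, was present in 19 genes. No match was found within the annotated transcripts of Hist1h1a, Hist1h2ba or Hist1h2aa, and sequence beyond these transcripts was not searched.

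Many H2A and H2B genes stand head to head and share a short promoter, and 12 such pairs with start sites under 1000 bases apart lay among the members. Promoter sequences from RefSeq (GRCm38.p6) were matched for 49 of the 55 genes. The octamer ATTTGCAT, which is bound by OCT1, was found on either strand in the 250 bases before the start or the 50 after it for 13 of 49 members (26.5%), against 1.75% of 27025 promoters. These were 7 of 14 H2A and 6 of 14 H2B genes and no H1, H3 or H4 gene. CCAAT was found in 83.7% of members and 37.9% of all promoters, TATAAA in 61.2% and 14.2%, and the H1 motif AAACACA in 18.4% and 7.14%, with 5 of the 6 H1 genes holding it. The promoters of a pair on chromosome 13 and of a pair on chromosome 11 are shown because, of the 12 pairs, these had the largest mean change between uSPG and dSPG of WT mice. They are the 250 bases before the start of Hist1h2ba, minus strand, chr13:23934157-23934406, and of Hist3h2a, plus strand, chr11:58954435-58954684, both 5′ to 3′, with octamer, CCAAT and TATAAA matches of either strand in capitals:
Hist1h2ba: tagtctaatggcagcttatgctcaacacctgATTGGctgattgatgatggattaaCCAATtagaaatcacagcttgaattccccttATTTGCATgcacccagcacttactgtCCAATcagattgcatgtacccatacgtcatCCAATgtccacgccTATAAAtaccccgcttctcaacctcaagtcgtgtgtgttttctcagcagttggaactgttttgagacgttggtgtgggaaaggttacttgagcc
Hist3h2a: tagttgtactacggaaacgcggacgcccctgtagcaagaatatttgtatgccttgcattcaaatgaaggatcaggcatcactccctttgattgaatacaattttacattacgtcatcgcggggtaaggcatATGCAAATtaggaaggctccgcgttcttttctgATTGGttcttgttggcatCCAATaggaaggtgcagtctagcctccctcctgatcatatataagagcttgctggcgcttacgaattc

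The sorting markers were checked before the histones. Thy1 and Kit followed the labels in all 12 libraries of the Zbtb16 table and in the 6 cKO libraries. In the 6 WT libraries of the Sox3 table they went against them. Of these 6, the ones labelled THY1+ had 0.253, 0.254 and 0.213 FPKM of Thy1 and the ones labelled KIT+ had 3.84, 3.59 and 4.06 FPKM, whereas the cKO THY1+ libraries were at 5.002, 3.61 and 5.26 FPKM. These libraries are therefore called "labelled THY1+" and "labelled KIT+" throughout. Differences between them are given by label and are not read as a change from uSPG to dSPG. Zbtb16 was at 42.0 to 58.7 FPKM in WT uSPG and 15.6 to 18.2 FPKM in null uSPG, and Sox3 was at or under 0.0820 FPKM in the 6 cKO libraries against 6.28 FPKM or more in every WT library of that table. Depth, estimated from the smallest steps in FPKM, was 25920000 to 35180000 reads in the Zbtb16 table. In the Sox3 table it was 28200000 to 31860000 reads for replicate 1 and 10980000 to 14920000 reads for replicates 2 and 3.

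Histone transcripts were abundant in all 24 libraries. Their summed level was 1.26% to 3.14% of all FPKM in a library. Hist1h1a (chr13:23763666-23764406, plus strand), which encodes the linker histone H1.1 and has 1 exon, had the highest level of any member, with a mean of 2118 FPKM, and contributed between 18.6% and 25.4% of the histone sum in every library. By class, H1 made up 25.6% to 29.3% of the sum, H4 20.6% to 31.8%, H2B 21.2% to 29.8%, H2A 12.3% to 17.5% and H3 3.61% to 7.47%. Most genes lay well below Hist1h1a, and the median mean level was 150.7 FPKM for H1 genes, 121.7 FPKM for H4, 96.7 FPKM for H2B, 93.0 FPKM for H3 and 43.4 FPKM for H2A. Next in level after Hist1h1a were Hist1h4d, Hist1h4c, Hist1h2bb, Hist1h2ba, Hist1h4k and Hist1h2aa. FPKM is scaled to transcript length, and the annotated transcript of Hist1h1a has 741 bases and that of Hist1h1d 7425. Of the latter, 4884 bases lie after the stem-loop. The order of genes and the class shares and medians thus also depend on annotated lengths. The lengths that the authors used are not given in the sources used here.

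**Figure D1:**
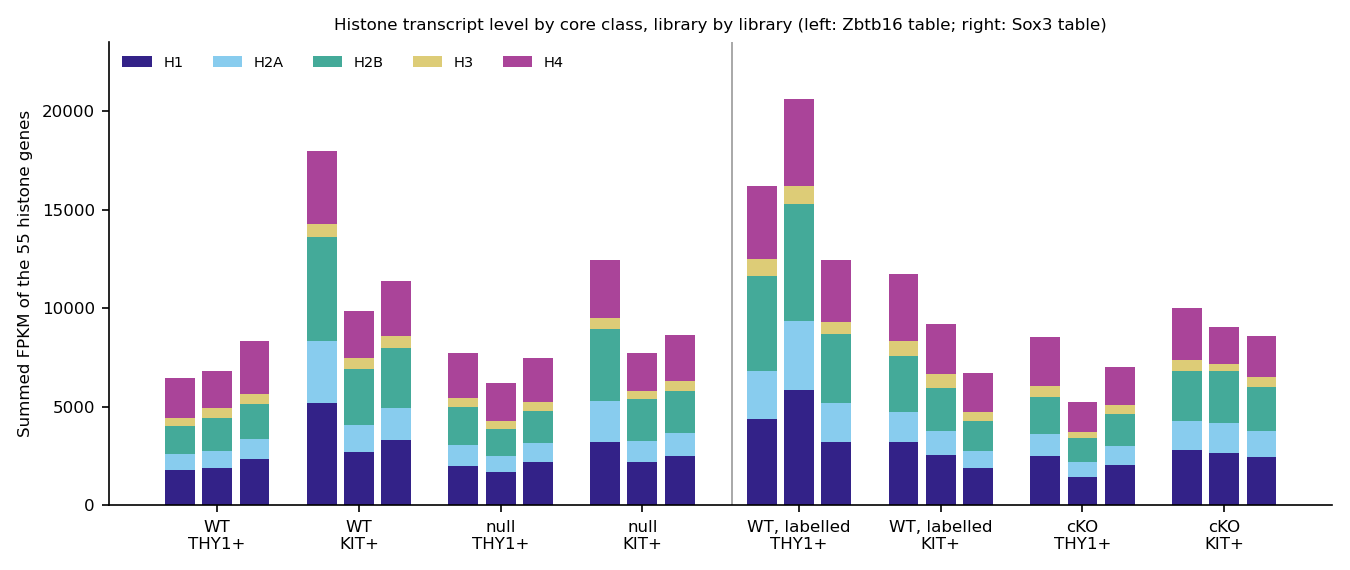
Summed FPKM of the 55 histone genes in each of the 24 libraries, stacked by class (linear axis from 0), with libraries grouped by genotype and fraction as labelled. In the Zbtb16 table the WT KIT+ libraries reached 9864 to 17997 FPKM and the WT THY1+ libraries 6441 to 8313 FPKM.

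The first comparison asked how the histone genes differed between dSPG and uSPG of WT mice. Histone levels were higher in KIT+ than in THY1+ cells for 22 of 55 genes and lower for 1, when a call required 1.5-fold and an adjusted p no higher than 0.05 (limma on log2(FPKM + 0.1), Benjamini-Hochberg adjusted over 22374 genes). Over all genes tested, 7.21% passed as higher and 14% as lower. The median log2 difference was 0.56 over the histone genes and -0.03 over all genes. An unadjusted p under 0.05 was found for 38 histone genes, and the share of all genes at that p is not given here. The 3 KIT+ libraries lay above all 3 THY1+ libraries for 31 histone genes and below them for 6, against 18.5% and 24.1% of all genes. The summed histone level was 6441, 6831 and 8313 FPKM in the THY1+ libraries and 17997, 9864 and 11391 FPKM in the KIT+ libraries. The groups did not overlap, and KIT+ replicate 1 stood well above the other two. Without 1 library at a time, 17 to 28 histone genes were called.

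By class, the calls were spread as follows. Of H2B genes 9 of 17 rose, with a class median of 0.96 on the log2 scale. Of H2A genes 6 of 15 rose (median 0.58), and of H4 genes 5 of 12 rose and 1 fell (median 0.68). Of H1 genes only Hist1h1a rose (1 of 6, median 0.06), and of H3 genes only Hist1h3a (1 of 5, median 0.27). Whether the classes differed from each other was not tested.

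**Figure D2:**
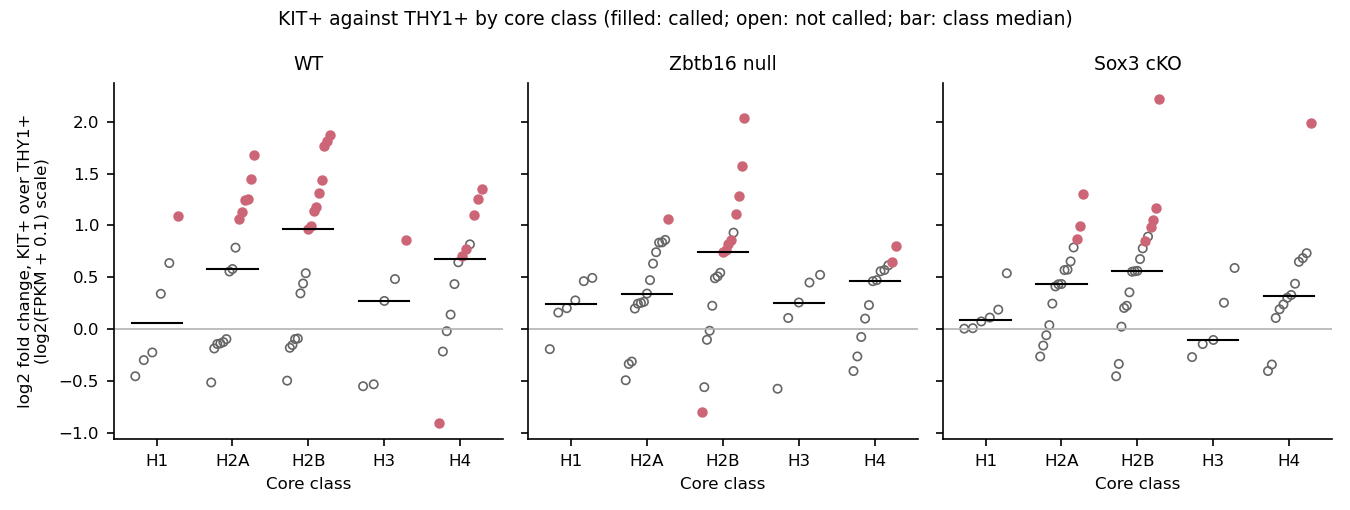
Log2 fold change of each histone gene, KIT+ over THY1+ (scale log2(FPKM + 0.1)), by class, for WT and Zbtb16 null mice and for Sox3 cKO mice. Filled points passed the test and open points did not; bars are class medians. The WT H2B median is 0.96 and the WT H1 median 0.06.

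Hist1h1a was at 1235, 1268 and 1658 FPKM in WT THY1+ libraries and at 4575, 2074 and 2669 FPKM in WT KIT+ libraries. All 3 KIT+ values were above all 3 THY1+ values, for a log2 difference of 1.095 ± 0.29 (SE, limma adjusted p = 0.0144). The call was lost without THY1+ replicate 1 (limma adjusted p = 0.0530). The other H1 genes did not pass: Hist1h1c was at 191.7 to 249.7 FPKM in THY1+ and 257.7 to 317.4 FPKM in KIT+ libraries, and Hist1h1e at 205.9 to 273.3 FPKM and 178.5 to 217.0 FPKM.

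The testis-specific pair Hist1h2ba and Hist1h2aa, which encode TH2B and TH2A, start 306 bases apart on opposite strands (chr13:23933773-23934156, minus strand, and chr13:23934462-23934851, plus strand, 1 exon each), around the promoter printed first above. Hist1h2ba was at 196.1, 216.3 and 249.1 FPKM in THY1+ and at 1823, 437.1 and 581.8 FPKM in KIT+ libraries, and rose by 1.82 ± 0.46 (log2, SE, limma adjusted p = 0.0121). Hist1h2aa was at 194.3, 215.8 and 257.3 FPKM and at 1508, 417.6 and 558.4 FPKM, and rose by 1.67 ± 0.43 (limma adjusted p = 0.0131). Both genes had similar levels in each library, both were highest in KIT+ replicate 1, and neither gene's groups overlapped. Without KIT+ replicate 1 the differences were 1.2003 for Hist1h2ba and 1.127 for Hist1h2aa. Together they were 6.06% to 6.33% of the histone sum in THY1+ libraries and 8.66% to 18.5% in KIT+ libraries. Hist1h1t, the testis linker histone, was lower by far, at 21.2 to 30.9 FPKM in THY1+ and 31.1 to 49.7 FPKM in KIT+ libraries, and did not pass (0.64 ± 0.23, limma adjusted p = 0.0540).

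The small clusters outside chromosome 13 moved differently from each other. All 3 Hist3 genes rose. Hist3h2ba (chr11:58948920-58949533, plus strand), an H2B gene, was at 42.3, 53.8 and 53.5 FPKM in THY1+ and 287.8, 139.1 and 148.9 FPKM in KIT+ libraries. Its rise of 1.87 ± 0.34 (log2, SE, limma adjusted p = 0.00202) was the largest among the 55 genes, and its groups were far apart. Hist3h2bb-ps and Hist3h2a, which start 173 bases apart at the second promoter printed above, rose by 1.76 and 1.45. Hist4h4 (chr6:136801553-136804415, minus strand), an H4 gene that stands alone, was at 21.2, 23.6 and 27.7 FPKM in THY1+ and at 71.7, 40.9 and 46.9 FPKM in KIT+ libraries and rose by 1.101 ± 0.22 (limma adjusted p = 0.00345).

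In the Hist2 cluster 1 gene rose, 1 fell and 4 of the 6 did not pass. Hist2h4 (chr3:96261682-96263311, minus strand), an H4 gene, was at 16.2, 14.7 and 17.2 FPKM in THY1+ and at 7.20, 9.97 and 8.53 FPKM in KIT+ libraries. It was the only member that fell, by 0.90 ± 0.14 (limma adjusted p = 0.000645), and its groups did not overlap. Hist2h2be, which can also be made as a polyadenylated mRNA, was scarce, at 1.14, 0.915 and 1.06 FPKM in THY1+ and 1.54, 2.92 and 3.35 FPKM in KIT+ libraries. Its rise of 1.18 ± 0.35 (limma adjusted p = 0.0246) was lost without any 1 of 5 of the 6 libraries, with adjusted p-values up to 0.0982, and stood without KIT+ replicate 1. Its head-to-head partner Hist2h2ac, 239 bases away, was at 43.0 to 45.7 FPKM in THY1+ and 24.95 to 39.2 FPKM in KIT+ libraries and did not pass (-0.51). Of the other 3 members known to be made as polyadenylated mRNA, Hist1h1c, Hist1h2bc and Hist1h2be, none passed (0.34, 0.35 and -0.09).

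**Figure D3:**
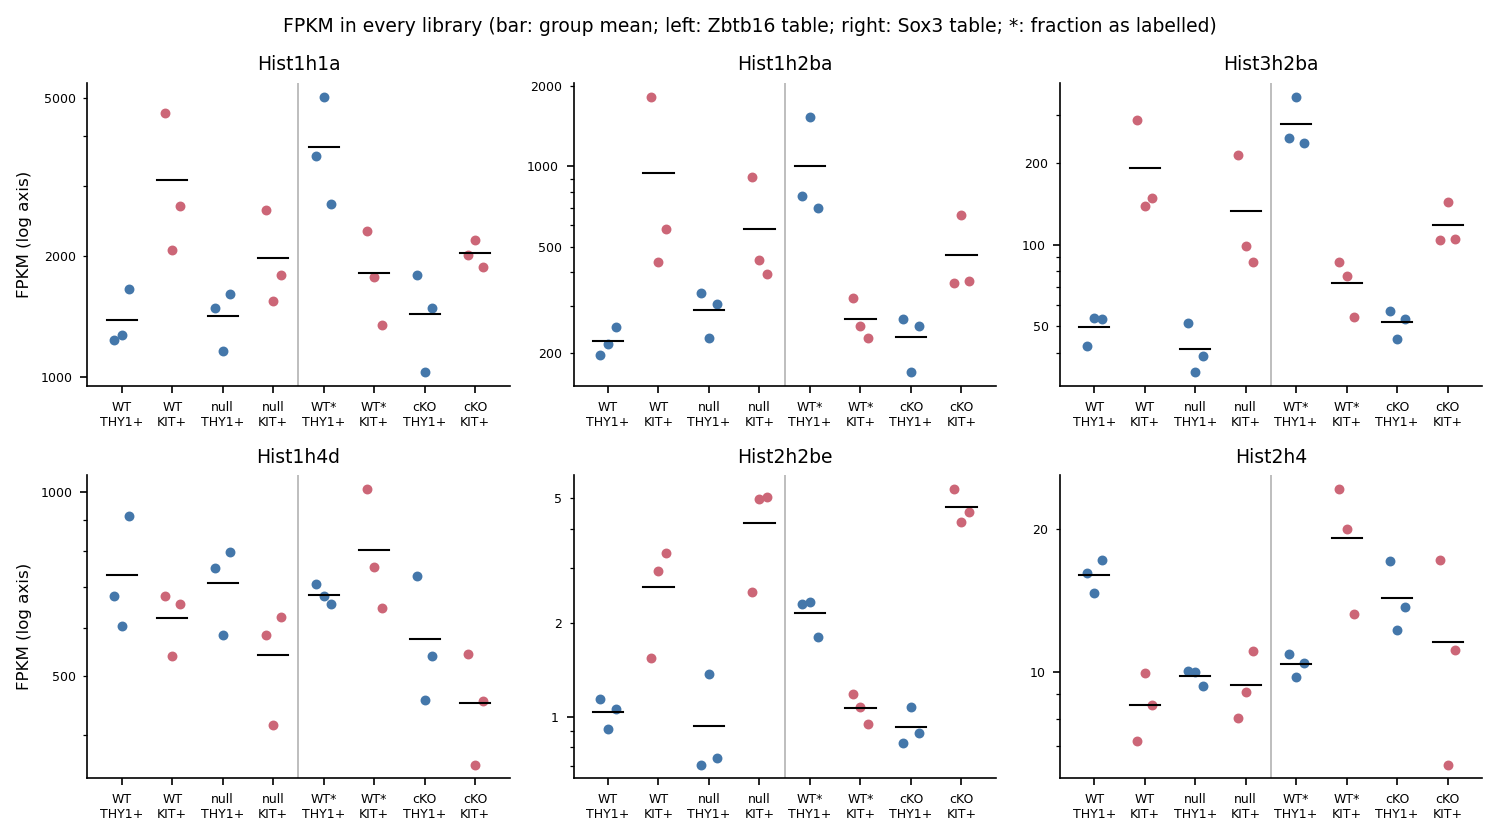
FPKM of 6 histone genes in each of the 24 libraries (log axis), by group as labelled; points are libraries. Hist1h1a, Hist1h2ba and Hist3h2ba lie higher in WT KIT+ than in WT THY1+ libraries of the Zbtb16 table, Hist2h4 lies lower, and the Hist1h4d groups overlap.

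Within the Hist1 cluster the changes were grouped by position. Members were split wherever more than 50000 bases separated neighbours, a rule chosen after the values were seen, so no test is given for it. In the group of 13 genes from Hist1h4h to Hist1h1e (chr13:23531050-23622558) none passed in WT, 12 of 13 differences were negative and the median was -0.14. In the group of 5 genes from Hist1h2ah to Hist1h2bj (chr13:22035164-22043676) all 5 rose, with a median of 1.25. In the group from Hist1h2ac to Hist1h1a (chr13:23681467-23764406), next to the first one, all 13 differences were positive, 4 genes rose and the median was 0.58. In the group at chr13:21715763-21832196, 6 of 12 genes rose, with a median of 0.80.

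Hist1h4d, in the group without calls, was the gene with the next highest mean level after Hist1h1a. It was at 676.6, 602.9 and 915.0 FPKM in THY1+ and 675.9, 538.8 and 655.1 FPKM in KIT+ libraries, which overlapped (-0.22 ± 0.20, limma adjusted p = 0.467). The 13 genes of that group made up 22.7%, 20.6% and 22.9% of the histone sum in WT THY1+ libraries and 8.16%, 13.3% and 12.7% in WT KIT+ libraries. In null mice their share was 21.5%, 22.2% and 22.4% in THY1+ and 11.3%, 14.8% and 17.7% in KIT+ libraries. In cKO mice it was 18.8%, 19.9% and 18.1% in THY1+ and 15.4%, 10.8% and 14.1% in KIT+ libraries. In each of these 3 genotypes all KIT+ libraries were below all THY1+ libraries. A share also moves with the level of the other histone genes, and the genes of the group did not repeat the WT pattern in the mutants. In null mice 8 of their 13 differences were negative (median -0.19) and Hist1h2bh rose (0.74), and in cKO mice 5 were negative (median 0.02) and none passed.

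**Figure D4:**
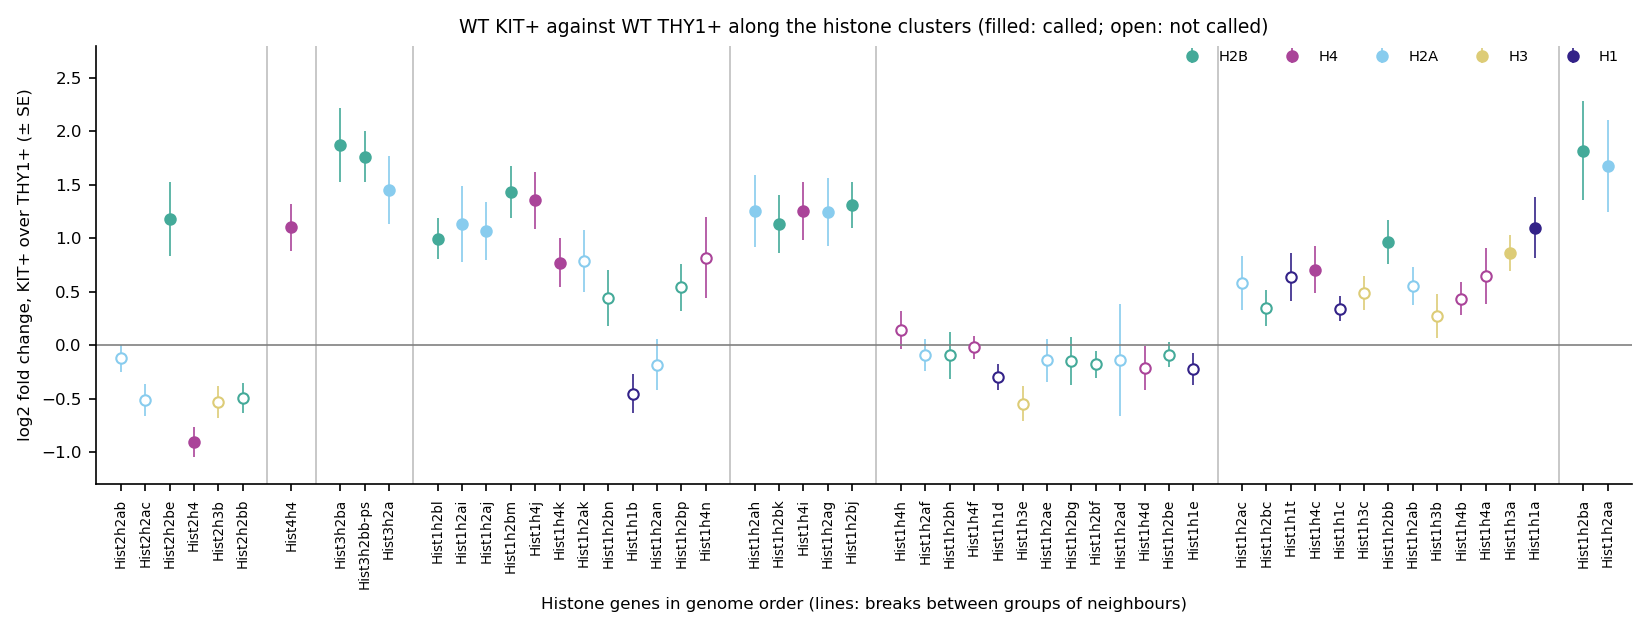
Log2 fold change of each histone gene, WT KIT+ over WT THY1+ (scale log2(FPKM + 0.1)), in the order of the genes along the chromosomes; error bars are SE from limma. The 13 genes from Hist1h4h to Hist1h1e lie near 0 (median -0.14), between groups of genes that lie above it.

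Histone genes share long stretches of sequence, and the authors' alignment allowed a read to be placed at up to 50 positions. Levels of similar genes may thus partly rest on the same reads. How a read with several placements was counted is not given in the sources used here. Of the 50-base windows of a member's transcript, a median of 40.4% also occurred in another gene, with class medians of 60.4% for H3, 58.0% for H2A, 40.1% for H2B, 34.2% for H4 and 1.13% for H1. Values of single H2A, H2B, H3 and H4 genes are therefore uncertain. Among the 9 members with under 10% shared windows (5 H1 genes, Hist1h2aa, Hist2h2be, Hist2h4 and Hist4h4), 4 rose and 1 fell in WT dSPG, with a median of 0.64. From uSPG to dSPG, 2 of the 9 rose in null mice (median 0.46) and 2 in cKO mice (median 0.11), and none fell in either.

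Whether the motifs separate members that rose from the rest was not tested. Of the 13 genes with an octamer 7 rose in WT dSPG (median 0.96), and of the 36 matched genes without it 11 rose (median 0.44). Both genes of a pair share a promoter, so these are not independent. With a stem-loop match, 11 of 33 genes rose and 1 fell, and without one, 11 of 22 rose.

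The same comparison was made in the 2 mutants, whose libraries are not shared with the WT comparison. In Zbtb16 null mice 11 histone genes were higher in KIT+ than in THY1+ cells and 1 was lower, against 13.2% and 16% of all genes, and the median histone difference was 0.46. The 11 were 8 H2B genes, 2 H4 genes and 1 H2A gene. In Sox3 cKO mice 9 were higher and none lower (limma), against 10.5% and 12.2% of all genes, and the median was 0.41. In cKO mice 19 histone genes had an unadjusted p under 0.05, and the share of all genes at that p is not given here. Medians of all genes are not given here for either mutant. The 9 were 5 H2B genes, 3 H2A genes and 1 H4 gene. Read against the shares of all genes called, the 11 and 9 of 55 called higher are not far above the background. The calls of lower, 1 in null and none in cKO mice, are below it.

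Hist1h2aj, Hist1h2bk, Hist2h2be, Hist3h2ba and Hist3h2bb-ps rose in all 3 genotypes. For Hist1h2aj, annotated as a pseudogene, the cKO call was lost whichever cKO library was left out (limma adjusted p up to 0.104). Its WT call was lost without THY1+ replicate 1 or KIT+ replicate 1, and its null call stood throughout. Of the windows of its transcript, 93.1% also occurred in another gene, so its values are uncertain. Of the 55 genes, 34 had a positive difference in all 3 and 8 a negative one, among them Hist1h4d, Hist1h3e, Hist2h2bb and Hist2h4. The shares of all genes with these patterns are not given here, so the counts cannot be read as particular to histone genes. Hist3h2ba rose by 1.58 ± 0.34 in null mice (limma adjusted p = 0.00372), from 51.5, 33.9 and 38.9 FPKM to 213.6, 98.5 and 86.2 FPKM. In cKO mice it rose by 1.17 ± 0.21 (limma adjusted p = 0.00143), from 57.1, 45.1 and 53.5 FPKM to 104.1, 143.9 and 105.0 FPKM. In both mutants the fractions did not overlap.

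Hist2h2be had the largest rise among the members in both mutants. It went from 0.705, 1.37 and 0.739 FPKM to 2.50, 4.98 and 5.06 FPKM in null mice, a log2 difference of 2.03 ± 0.35 (limma adjusted p = 0.000787). In cKO mice it went from 0.829, 1.08 and 0.888 FPKM to 5.35, 4.197 and 4.52 FPKM, a difference of 2.22 ± 0.18 (limma adjusted p = 3.56e-06). These calls stood without any 1 library.

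Hist1h1a, the most abundant member, passed in neither mutant (0.46 in null and 0.54 in cKO mice). Hist1h2ba was at 334.2, 227.9 and 304.0 FPKM in null THY1+ and 914.2, 445.3 and 394.2 FPKM in null KIT+ libraries and did not pass (0.93 ± 0.46, limma adjusted p = 0.132). In cKO mice Hist1h2ba was at 266.9, 168.9 and 252.6 FPKM and at 365.4, 656.8 and 371.4 FPKM and rose by 0.99 ± 0.32 (limma adjusted p = 0.0370), a call lost without any 1 of 4 of the 6 libraries (THY1+ replicates 1, 2 and 3 and KIT+ replicate 2). Hist2h2bb, from the identifier that M21 gives to a lincRNA, was the only member lower in null KIT+ cells, at 166.5, 135.9 and 167.4 FPKM in THY1+ and 92.3, 74.9 and 104.8 FPKM in KIT+ libraries (-0.79 ± 0.14, limma adjusted p = 0.00118).

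Markers of other cells moved with the fractions. All 13 macrophage markers tested were lower in KIT+ than in THY1+ cells in WT, null and cKO mice, with a summed level of 992.1 to 1129 FPKM in WT THY1+ and 7.68 to 10.2 FPKM in WT KIT+ libraries. In null mice the sum was 466.4 to 879.6 FPKM and 7.36 to 19.5 FPKM, and in cKO mice 1207 to 1404 FPKM and 10.1 to 10.9 FPKM. All 8 Leydig cell markers were higher in KIT+ cells of WT and null mice and 7 of 8 in cKO mice. Their sum was 93.5 to 134.0 FPKM in WT THY1+ and 1238 to 2330 FPKM in WT KIT+ libraries, 58.7 to 89.7 FPKM and 2087 to 3181 FPKM in null mice, and 92.9 to 124.4 FPKM and 2544 to 5026 FPKM in cKO mice. In the Sox3 table, WT libraries labelled THY1+ had macrophage sums of 8.11 to 9.27 FPKM and Leydig sums of 1270 to 2052 FPKM. Those labelled KIT+ had 1175 to 1494 FPKM and 76.1 to 122.5 FPKM. Germ cell markers summed to 982.0 to 1187 FPKM in WT THY1+ and 961.3 to 1223 FPKM in WT KIT+ libraries, where 1 of 8 passed as lower. In null mice the germ cell sum was 1134 to 1474 FPKM in THY1+ and 711.5 to 1081 FPKM in KIT+ libraries. In cKO mice it was 1037 to 1192 FPKM and 757.0 to 1033 FPKM. In both mutants all KIT+ libraries thus lay below all THY1+ libraries. The part of these cells in the histone differences was not tested, and in bulk samples fewer cells of a type and less RNA per cell cannot be told apart.

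The noncoding RNA Rn7sk took the largest share of FPKM in each library, between 14.8% and 24.5%. The 24.5% was in WT KIT+ replicate 1, which also had the highest histone sum of its table, and 24.2% was in the WT library labelled THY1+ replicate 2, which had the highest of the other. Its part in the histone levels was not tested.

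The next comparison asked what loss of ZBTB16 did within each fraction. In THY1+ cells 1 histone gene was higher and 2 were lower in null than in WT mice, against 2.71% and 1.26% of all genes, and the median histone difference was -0.03. Hist1h4f, an H4 gene (chr13:23551258-23551648, minus strand), was at 62.6, 75.3 and 78.3 FPKM in WT and 108.6, 116.8 and 100.3 FPKM in null uSPG (0.59 ± 0.11, limma adjusted p = 0.0119). Hist2h3b, an H3 gene, was at 24.6, 17.6 and 22.1 FPKM in WT and 13.0, 10.5 and 13.7 FPKM in null uSPG (-0.78 ± 0.15, limma adjusted p = 0.0161). Hist2h4 was at 16.2, 14.7 and 17.2 FPKM in WT and 10.1, 10.03 and 9.37 FPKM in null uSPG (-0.69 ± 0.14, limma adjusted p = 0.0186). None of the 3 genes overlapped between genotypes, but each call was lost without WT THY1+ replicate 1 and without null THY1+ replicate 1, among others, with limma adjusted p-values up to 0.0724.

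In KIT+ cells no histone gene passed between null and WT (limma), against 0.259% of all genes, and 12 of 55 had an unadjusted p under 0.05, against 17.3% of all genes. The median difference was -0.30, and 37 of 55 were negative. Medians of all genes between null and WT are not given here for either fraction. The null KIT+ libraries summed to 12432, 7743 and 8613 FPKM, which overlapped the WT KIT+ libraries. The change from uSPG to dSPG was also compared between the genotypes as an interaction, and no histone gene passed (limma), against 0.0313% of all genes. An unadjusted p under 0.05 was found for 7 histone genes, against 22.4% of all genes. With the replicate number as a block, which was supported by the correlation of same-numbered samples for the KIT+ comparison but not for every pair in the interaction, calls appeared in both.

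For KIT+ cells the blocked fit called Hist1h1b and Hist1h2bh as higher in null mice (limma adjusted p = 0.0365 and 0.0393, against 0.157 and 0.164 without the block). Hist1h1b, which encodes the linker histone H1.5, was at 43.8, 77.0 and 71.4 FPKM in WT and 87.6, 107.0 and 109.3 FPKM in null KIT+ libraries. Hist1h2bh, an H2B gene, was at 10.8, 22.7 and 17.6 FPKM in WT and 26.8, 28.6 and 31.0 FPKM in null KIT+ libraries. Neither gene's groups overlapped. For the interaction the blocked fit called Hist2h3b (0.98), Hist1h1b (0.95), Hist1h2bh (0.84), Hist2h4 (0.83) and Hist2h2ac (0.76), all with a more positive change from uSPG to dSPG in null than in WT mice. Their limma adjusted p-values were 0.0183 to 0.0397 with the block and 0.0930 to 0.155 without it. Of these 5, without the block, only Hist2h4 was called between the WT fractions, as lower, and only Hist1h2bh between the null fractions, as higher. In neither fit was the interaction called for any of the 22 genes that rose in WT. The shares of all genes given above belong to the fit without the block. Those of the blocked fit are not given here, so its calls cannot be read as particular to histone genes.

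In the Sox3 table the effect of the cKO was averaged over both fractions, since that average is the same whichever WT group is THY1+. Histone genes were lower in cKO mice for 19 of 55 genes and higher for none (limma), against 2.83% and 7.49% of all genes. An unadjusted p under 0.05 was found for 41 histone genes, and the share of all genes at that p is not given here. The median histone difference was -0.59, where that of all genes was 0.02, and 51 of 55 differences were negative. The 19 comprised 2 H1, 5 H2A, 6 H2B, 2 H3 and 4 H4 genes, with all 3 Hist3 genes and none of the 6 Hist2 genes among them. With replicates 2 and 3 alone, which were sequenced to lower depth than replicate 1, 2 genes passed, and leaving out 1 library gave 7 (without cKO THY1+ replicate 2) to 30 (without labelled THY1+ WT replicate 3). Quantile normalization left 7.

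Hist3h2ba reached 246.6, 350.0 and 235.7 FPKM in WT samples labelled THY1+, 86.5, 76.6 and 54.2 FPKM in WT samples labelled KIT+, and the cKO levels were those given above. Its average fell by 0.85 ± 0.15 (limma adjusted p = 0.00381). Hist1h1a was at 3569, 5021 and 2698 FPKM in the libraries labelled THY1+ and 2318, 1778 and 1348 FPKM in those labelled KIT+ in WT. In cKO mice it was at 1794, 1025 and 1481 FPKM in THY1+ and 2020, 2202 and 1878 FPKM in KIT+ libraries. Its average fell by 0.59 ± 0.19 (limma adjusted p = 0.0448), a call lost without any 1 of 9 of the 12 libraries, with adjusted p-values up to 0.103. Hist1h2ad had the largest fall, 1.26 ± 0.41 (limma adjusted p = 0.0434), from scattered levels between 6.59 and 30.5 FPKM in WT and 3.84 and 12.4 FPKM in cKO libraries, and its call was also lost without any 1 of 9 libraries. Of the 14 named genes among the 19, Hist3h2ba, Hist3h2a, Hist1h3a, Hist1h4f and Hist1h4i stayed called whichever library was left out, but none of the 14 was called under every other setting as well: each of the 5 was lost under quantile normalization, with replicates 2 and 3 alone, or under both. Hist2h2be had a positive difference of 0.45 ± 0.13 that fell short of 1.5-fold.

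Germ cell markers moved with this average. All 8 had a negative difference (median -0.40) and 1 passed, while 3 of 8 markers of differentiating spermatogonia passed as lower. The germ cell sum was 1277 to 1383 FPKM and 1261 to 1444 FPKM for WT samples labelled THY1+ and KIT+, and 1037 to 1192 FPKM and 757.0 to 1033 FPKM in cKO THY1+ and KIT+ libraries. Of other cells, 5 of 8 Leydig cell, 3 of 10 Sertoli cell, 3 of 12 stromal, 3 of 8 endothelial and no macrophage markers (0 of 13) were higher in cKO mice. The part of these markers in the histone difference was not tested.

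**Figure D5:**
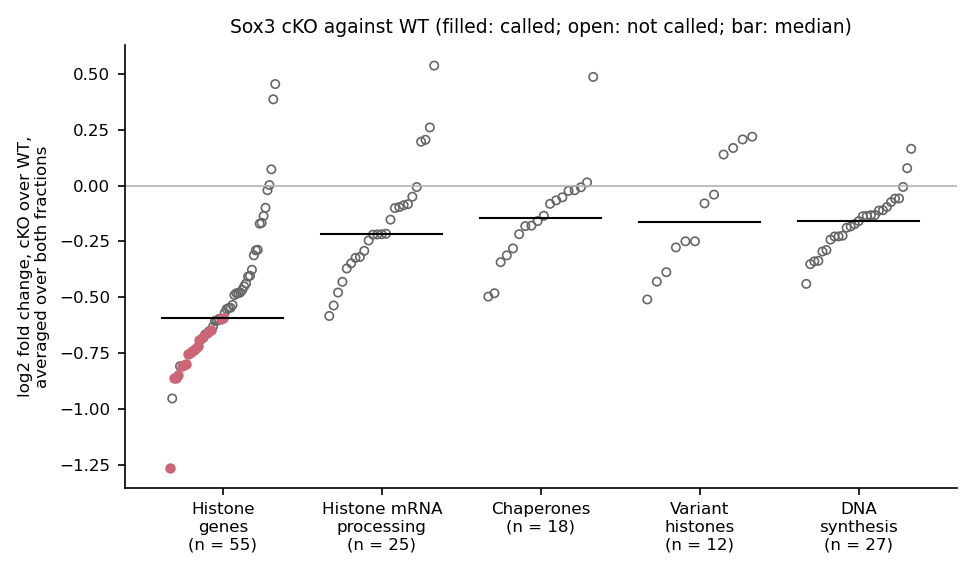
Log2 fold change of each gene, Sox3 cKO over WT, averaged over both fractions (scale log2(FPKM + 0.1)), for the 55 histone genes and 4 lists of genes of the same pathway; filled points passed the test, open points did not and bars are medians. The histone median is -0.59 and the DNA synthesis median -0.16, and no gene of the 4 lists passed.

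Taken by label, the comparisons in this table mix genotype with the conflict over the fractions. Between libraries labelled THY1+, 33 histone genes were lower in cKO and none higher (limma), against 11.3% and 17.8% of all genes. Between libraries labelled KIT+, 3 were higher and 5 lower, against 12.4% and 12.6% of all genes. Among the WT libraries, 21 histone genes were lower in those labelled KIT+ than in those labelled THY1+ and none was higher (limma), against 6.53% and 13.1% of all genes, the opposite direction to the other table. Compared across the labels, cKO THY1+ against WT labelled KIT+ gave no histone call (limma, against 0.0707% of all genes), with 10 of 55 at an unadjusted p under 0.05 against 13.2% of all genes and a median of -0.43. For cKO KIT+ against WT labelled THY1+, 21 were lower and 2 higher, Hist2h2be and Hist1h2bh, against 4.57% and 12.4% of all genes. The median was -0.72. In this comparison 2 genes were called with replicates 2 and 3 alone, 14 with quantile normalization and 10 with GC and length correction. Medians of all genes are not given here for either comparison across the labels.

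Other genes of the histone pathway were read from 4 lists, against the same shares of all genes as the members. Between the WT fractions these were 7.21% higher and 14% lower, in null mice 13.2% and 16%, and in cKO mice 10.5% and 12.2%. Of 25 genes for histone mRNA processing and transcription, Ccne2 and Cpsf2 rose and Zcchc6 fell from WT uSPG to dSPG, a number near the background. Ccne2, which encodes the S phase cyclin E2, was at 18.6, 16.7 and 19.2 FPKM in THY1+ and 59.1, 26.0 and 33.5 FPKM in KIT+ libraries (1.03 ± 0.27, limma adjusted p = 0.0134), and was highest in the same library as the histones. It also rose in cKO dSPG (0.73). Slbp was at 31.3 to 39.0 FPKM in WT THY1+ and 36.7 to 48.0 FPKM in WT KIT+ libraries and was not called in any of the 12 comparisons, nor was Npat. In the 3 comparisons of KIT+ with THY1+, Slbp differed by 0.33, 0.06 and 0.08 in WT, null and cKO mice.

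Ncbp1, a subunit of the nuclear cap-binding complex, was the only gene of these lists called in the interaction. It was at 51.3, 50.9 and 58.4 FPKM in WT uSPG, 93.8, 92.9 and 101.3 FPKM in null uSPG, 46.7, 47.0 and 50.8 FPKM in WT dSPG and 44.4, 40.8 and 48.2 FPKM in null dSPG. The null uSPG libraries stood apart from the other 9, with a rise over WT uSPG of 0.84 ± 0.09 (limma adjusted p = 0.000784) and an interaction of -0.96 ± 0.13 (limma adjusted p = 0.0409).

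Of 27 DNA synthesis genes none rose in WT dSPG and Pola1, a DNA polymerase subunit, fell (-0.70), with a list median of 0.04. In null mice none rose and Pola1 fell (-0.79), and in cKO mice none passed. In the averaged Sox3 comparison none of the 27 passed, 25 had a negative difference and the median was -0.16. Of 18 histone chaperones and assembly factors, Chaf1b, a subunit of the chromatin assembly factor CAF-1, fell in WT, null and cKO dSPG (-1.09, -0.83 and -1.22), and no other passed in these 3 comparisons. Between libraries labelled THY1+, Asf1b was lower (-0.70) and Chaf1b higher (1.16) in cKO than in WT. Between libraries labelled KIT+, Chaf1b was lower (-1.18). Across the labels, for cKO KIT+ against WT labelled THY1+, Asf1b and Hat1 were lower and Atrx higher. The shares of all genes called in these comparisons are those given above. Of 12 variant histones made outside S phase, H2afy and H2afy2, which encode the macroH2A proteins, fell in WT dSPG (-0.97 and -1.09) and in null dSPG (-0.98 and -0.71), and H2afy also fell in cKO dSPG (-0.73). H1f0, the linker histone of resting cells, rose in null and cKO dSPG (1.33 and 0.95) and did not pass in WT (0.44, limma adjusted p = 0.147). Its change in null was not called as different from that in WT.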

How the data were processed

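RNA-seq libraries (24 samples, 8 groups of 3) were made by the authors with a stranded kit after ribosomal RNA depletion, sequenced as 50-cycle single reads, aligned to mm10 with Novoalign allowing up to 50 placements per read, and summarised as FPKM per gene. The authors deposited FPKM values, not counts, in 2 tables. Their DESeq2 results were not used. Whether counting used strand is not given in the sources used here. All columns were mapped to samples from their labels.

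Here, log2(FPKM + 0.1) values were fitted with limma 3.58.1 (R 4.3.3; 4 group means over the 12 libraries of a table, trended robust empirical Bayes) for genes with mean FPKM of at least 0.1 (22374 in the Zbtb16 and 21212 in the Sox3 table), with two-sided p-values adjusted by Benjamini-Hochberg over all of them. Genes were called when the change was 1.5-fold or more and the adjusted p 0.05 or less. Fold changes on this scale understate those of low genes. The script was tested on simulated data. Tables were tested separately, since each was normalized on its own. The authors' tables hold no counts. Depth was therefore estimated from whole multiples of the smallest FPKM step (tolerance 0.05 reads, genes at 8 reads or fewer), which is not exact enough for a count test. Sequences were read with Python 3.11.15 from transcripts of GENCODE M21 and promoters of RefSeq.

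Named genes were the 3 highest members of each class, up to 5 called members with the largest change in each comparison and direction, the testis-specific and polyadenylated histones, the Hist3 and Hist4 members, called pathway genes, Slbp, Npat, the sorting markers and the targeted genes. The positional groups and Hist2h2ac were chosen after values were seen. The members, lists and tests were chosen with earlier results of these data known. Replicate numbers were taken to pair the samples where deviations from the group means correlated at over 0.1 in all 3 same-numbered pairs of the groups compared. No label says that a number marks a shared isolation. This held for null KIT+ with null THY1+, for null with WT in either fraction, and for cKO THY1+ with WT labelled KIT+, but not between the WT or cKO fractions. The main fit has no block. Alternatives covered the pseudocount, filter, scaling, empirical Bayes settings, GC content and length, pairing, samples in the fit and single libraries left out.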

Additional observations from a re-analysis of the deposited data

Results flagged for a closer look

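For 18 of the 55 histone genes, all 3 WT libraries labelled KIT+ lay below all 3 labelled THY1+ in the Sox3 table while all 3 cKO KIT+ libraries lay above all 3 cKO THY1+ libraries. Hist1h1a, Hist1h2ba and Hist3h2ba were among them. The share of all genes with this pattern was not computed, so the count cannot be read as particular to histone genes. The difference between the genotypes was not tested. The sorting markers Thy1 and Kit went against the labels of the same 6 WT libraries.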

How the results depend on the processing

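No called value of a named gene changed sign under any alternative. Of their 8177 values 7678 kept their side of the threshold, 190 gained and 309 lost significance, and 179 that were called in neither fit changed sign. The median histone difference ran from -0.12 to 0.06 for null against WT uSPG and from -0.26 to 0.10 between libraries labelled KIT+, and kept its sign in the other 10 comparisons. In WT dSPG against uSPG the 23 histone calls stayed between 22 and 28 under other settings and between 17 and 28 without 1 library. The fall of 21 among the WT libraries as labelled and of 33 between libraries labelled THY1+ ran from 14 to 24 and from 27 to 36 without 1 library, and cKO THY1+ against WT labelled KIT+ gave 0 calls throughout. Leaving out 1 library gave 6 to 17 calls in null dSPG against uSPG (12 with all), 0 to 3 in null against WT uSPG (3), 0 to 2 for the interaction (0), 4 to 10 in cKO dSPG against uSPG (9), 7 to 30 for the averaged cKO effect (19), 3 to 13 between libraries labelled KIT+ (8) and 6 to 28 for cKO KIT+ against WT labelled THY1+ (23). Quantile normalization left 7 and 14 calls for the averaged effect and for cKO KIT+ against WT labelled THY1+, and GC and length correction left 10 for the latter. With replicates 2 and 3 of the Sox3 table alone, 5 histone genes were called in cKO dSPG, 2 for the averaged effect, 5 between libraries labelled KIT+ and 2 for cKO KIT+ against WT labelled THY1+. This alternative has fewer libraries. The cause of the other changes was not tested.

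Replicate numbers are shared by the groups. Deviations of same-numbered samples correlated at 0.33 on average in the Zbtb16 table (16 of 18 pairs over 0.1, 11 of 12 samples closest to their own number) and at 0.15 in the Sox3 table (12 of 18, and 9 of 12). With a replicate block, null against WT dSPG gave 2 calls, the interaction 5 and cKO dSPG against uSPG 17, and 3, 5 and 15 with GC and length correction as well. The shares of all genes called with the block are not given here. The block moved no other count of calls by over 1.5 times. Depth was estimated and not counted, so no counting error was computed.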
